A study of Mus musculus with 38 samples.

Results

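Black rice feeding was compared with control feeding in the M-coded libraries of the AOM set, which are 6 of the 38 libraries of the series. The libraries were chosen by their titles, and the black rice group and the control group held 3 libraries each. The titles join a diet letter, the letter F or M, the set name AOM and a replicate number. The treatment labels read black rice and control, and both groups carry the AOM code. AOM is not spelled out in the labels. In colorectal cancer studies the letters usually stand for azoxymethane, a carcinogen that gives mice tumours of the distal colon. The labels give the tissue as intestinal tract, with no strain, age, dose or feeding time, and do not say whether tumour or normal mucosa was taken or whether a library is 1 animal. The libraries set beside them are the F-coded AOM libraries on both diets, the M-coded libraries of a set named Apc on both diets, whose allele is not spelled out in the labels, and 8 libraries whose titles give only a diet letter and a number. P-values therefore measure the spread between these libraries, which may be technical in part.

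The lining of the colon is renewed from stem cells at the base of crypts, where Wnt ligands hold the protein beta-catenin stable. Beta-catenin then joins TCF factors on DNA and switches on growth genes together with a set of secreted and intracellular brakes on the pathway itself. In mouse intestinal tumours with active beta-catenin these brakes, among them Notum, Wif1 and Nkd1, are known to be highly transcribed, and genes of Paneth cells, secretory cells that the normal mouse colon lacks, can appear. Black rice is rich in anthocyanin pigments and fibre, and the aryl hydrocarbon receptor, which senses plant compounds and tryptophan products of gut bacteria, is a common question in such feeding studies.

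Library totals lay between 39.07 and 46.84 M counts on black rice and between 46.59 and 55.09 M counts on control. Levels are given as CPM, the counts of a gene per M counts of its library, and differences as log2 fold changes, black rice minus control, from a fit that scales libraries with TMM factors. Xist, the RNA of the inactive X chromosome, lay at 0.221 to 0.358 CPM on black rice, against 0.127 to 0.657 CPM on control, and the sum of 4 Y-linked genes lay at 82.3 to 137 CPM and at 103 to 197 CPM, as in male tissue. Lct, the lactase of small intestinal enterocytes, reached at most 0.309 CPM on black rice, against 0.322 CPM on control. The 12 pan-epithelial markers summed to between 16105 and 16244 CPM in the black rice libraries and between 10503 and 15116 CPM in the control libraries.

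The 6 libraries differed widely in Hox genes that mark position along the gut. Hoxa13, Hoxb13 and Hoxd13 mark the far end of the gut. Their summed level was 0.939, 1.20 and 97.3 CPM in black rice libraries 1, 2 and 3, and 25.5, 97.0 and 380 CPM in control libraries 1, 2 and 3. Hoxb6, Hoxb7, Hoxb8 and Hoxb9, which reach further forward, summed to 361, 316 and 116 CPM on black rice, against 200, 68.8 and 66.9 CPM on control. Black rice libraries 1 and 2 thus stood apart by near absence of the most distal genes, and control library 3 by their highest level. On the first principal component, 52.3% of the variance, black rice libraries 1 and 2 lay at -74.9 and -79.5, control library 3 at 114, and the other 3 libraries between 10.01 and 18.3. The labels give no position and do not say whether tumour was taken. Position along the gut, tumour content and diet cannot be told apart in full with these libraries. Black rice library 3 and control library 2 had nearly the same distal Hox sum, and their values are the closest match between the diets.

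**Figure D1:**
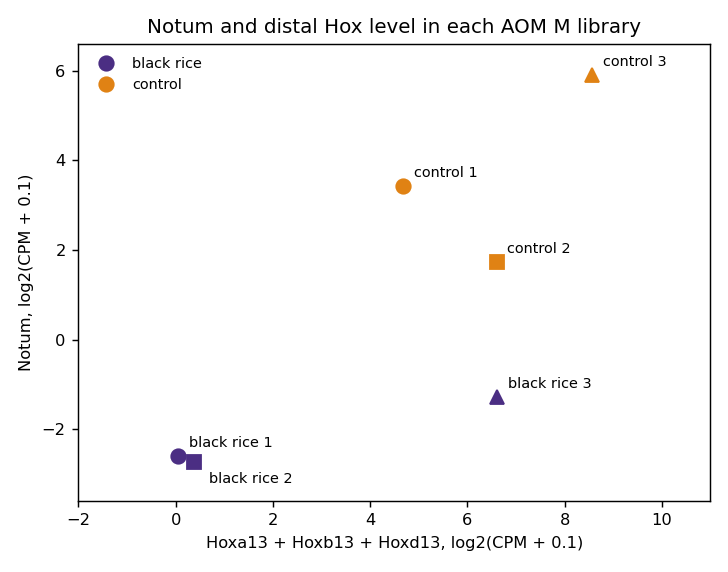
Each point is a library of the AOM M set, with the summed level of Hoxa13, Hoxb13 and Hoxd13 on the x axis and the level of Notum on the y axis, both as log2(CPM + 0.1). Black rice libraries are purple and control libraries orange. Black rice library 3 and control library 2 share a Hox sum of 97.3 and 97.0 CPM and have 0.309 and 3.24 CPM of Notum.

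No single gene passed the adjusted threshold. Of 19683 genes tested, edgeR's quasi-likelihood test called 0 (0%) at a Benjamini-Hochberg adjusted p under 0.05, with a smallest adjusted p of 0.446. At an unadjusted p under 0.05 it counted 2174 genes (11%), 917 higher (4.66%) and 1257 lower (6.39%) on black rice. All 3 black rice libraries lay above all 3 control libraries for 1429 genes (7.26%) and below them for 1360 genes (6.91%). A log2 fold change below 0 was measured for 52.4% of genes and above 0 for 47.6%, with a median of -0.03. Limma-voom also called 0 genes, while DESeq2 called 196, of which 69 were higher and 127 lower. With the replicate number as a block edgeR called 9 genes, 1 higher and 8 lower, on 2 residual degrees of freedom, though black rice library 2 deviated more like control library 1 than like control library 2. Those percentages are the background for the gene lists that follow, and without the block the only call of edgeR under another setting was that of Alb, given with its values.

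Brakes and targets of the Wnt pathway stood lower on black rice. Of the 19 genes on the Wnt list, all tested, 18 had a log2 fold change below 0. An unadjusted p under 0.05 was reached by 13, all lower, against a background of 6.39%. The black rice libraries lay wholly below the control libraries for 9, against 6.91%. The median log2 fold change of the list was -1.80. Control library 3 was the highest library for 19 of the 19 genes, and black rice library 3 lay below control library 2 for 15 of them, against 44.2% and 40.6% of all genes tested. DESeq2 called 6 members lower and 0 higher.

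Notum (ENSMUSG00000042988), a secreted enzyme that strips the lipid from Wnt ligands, had 0.064, 0.0512 and 0.309 CPM on black rice, against 10.7, 3.24 and 59.5 CPM on control. The groups did not overlap, and the lowest control library was above the highest black rice library by a wide margin. In reads this was 19 on black rice and 3527 on control. The log2 fold change was -7.20 (SE 1.25, edgeR adjusted p = 0.446), and with the replicate block it was -7.12 (edgeR adjusted p = 0.0336). Wif1 (ENSMUSG00000020218), which binds Wnt ligands outside the cell, had 1.24, 0.461 and 1.24 CPM on black rice, against 34.7, 7.67 and 154 CPM on control. Its groups did not overlap either (log2 fold change -5.84, SE 1.07, edgeR adjusted p = 0.446). Without control library 3 the log2 fold changes of Notum and Wif1 were -5.63 and -4.44. With black rice library 3 as the only black rice library they were -6.23 and -5.67.

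Brakes that act on the receptors or inside the cell also stood lower on black rice. Nkd1, which binds Dishevelled, had 9.50, 15.8 and 21.0 CPM on black rice, against 82.6, 50.3 and 298 CPM on control. Apcdd1, a membrane inhibitor of the pathway, had 1.17, 2.23 and 3.69 CPM on black rice, against 30.9, 6.12 and 90.04 CPM on control. Znrf3, a ligase that removes Frizzled receptors, had 5.98, 6.73 and 8.78 CPM on black rice, against 12.7, 10.02 and 41.2 CPM on control. None of these 3 genes had overlapping groups, with log2 fold changes of -3.03, -3.99 and -1.38. Without control library 3 these were -2.10, -3.01 and -0.64. Axin2, a scaffold of the complex that degrades beta-catenin and a standard readout of the pathway, had 21.2, 16.1 and 15.6 CPM on black rice, against 36.6, 20.6 and 182 CPM on control. Here black rice library 1 lay above control library 2, so the groups overlapped (log2 fold change -1.93, SE 0.69, edgeR adjusted p = 0.446). Without control library 3 the log2 fold change of Axin2 was -0.65.

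The transcription factors of the list were lower as well. Lef1, a partner of beta-catenin, had 1.26, 1.13 and 0.728 CPM on black rice, against 5.05, 1.97 and 24.6 CPM on control, and Tcf7, another, had 5.38, 5.12 and 5.47 CPM on black rice, against 11.8, 7.88 and 44.9 CPM on control. Neither gene's groups overlapped. Prox1, a homeobox factor of enteroendocrine cells, lymphatic vessels and intestinal tumours, had 3.22, 5.3999 and 6.38 CPM on black rice, against 31.0, 10.1 and 242 CPM on control. Ccnd1, cyclin D1, had 21.3, 24.5 and 46.4 CPM on black rice, against 47.3, 54.1 and 87.8 CPM on control, a narrow gap between groups that still did not overlap. Myc had 32.0, 27.1 and 36.3 CPM on black rice, against 34.5, 43.7 and 68.5 CPM on control, where the groups overlapped. The log2 fold changes of Lef1, Tcf7, Prox1, Ccnd1 and Myc were -3.07, -1.80, -3.99, -0.92 and -0.47, each with an edgeR adjusted p of 0.446. Without control library 3 they were -1.70, -0.84, -2.04, -0.71 and -0.25. T, the brachyury gene, was not on the list and had no read in any black rice library and 2.70, 1.06 and 18.4 CPM on control. Against a floor of 3 reads in each black rice library (0.069 CPM on average) it was at least 107-fold lower, and at least 27.3-fold lower without control library 3.

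Sp5 is a direct target of beta-catenin and TCF factors, and its promoter window is shown because it carries several copies of the letters those factors bind. It had 0.939, 1.77 and 1.48 CPM on black rice, against 3.74, 1.41 and 21.8 CPM on control, so black rice libraries 2 and 3 lay above control library 2 (log2 fold change -2.43, SE 0.89, edgeR adjusted p = 0.446, and -0.86 without control library 3). The window is 250 bases before to 50 after the start of the gene, from RefSeq on GRCm38.p6, chr2:70474673-70474972 on the plus strand. Capitals mark CTTTGA or CTTTGT on either strand, which overlap no other match.
Sp5: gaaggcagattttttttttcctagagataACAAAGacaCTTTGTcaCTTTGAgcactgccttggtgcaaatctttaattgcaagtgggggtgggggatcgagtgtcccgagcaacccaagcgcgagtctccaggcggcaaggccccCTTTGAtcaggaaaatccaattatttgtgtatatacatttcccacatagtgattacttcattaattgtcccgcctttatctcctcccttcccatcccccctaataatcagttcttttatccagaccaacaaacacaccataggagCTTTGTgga
The Sp5 window held 5 matches, and 0.0365% of the 32851 windows in the table held at least 5. At least 1 match was present in 31.2% of all windows. A window was in the table for 12 of the 19 Wnt list genes, and 3 of these 12 held a match. Counted by window, as the 31.2% is, 3 of their 18 windows (16.7%) held a match. The letters are a description of these windows and say nothing of where the factors sat.

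Genes of Paneth cells and of deep crypt secretory cells stood lower on black rice. Of 11 genes given, 10 were tested, and Mptx2 was filtered out at or below 0.0221 CPM on black rice, against 0.0193 to 16.3 CPM on control. All 10 had a log2 fold change below 0, with a median of -3.38. An unadjusted p under 0.05 was reached by 7, and 6 had groups that did not overlap (backgrounds 6.39% and 6.91%). DESeq2 called 4 lower. The list summed to 254, 587 and 352 CPM on black rice, against 1556, 367 and 2026 CPM on control. Black rice library 2 lay above control library 2, so the sums overlapped. Lyz1, the lysozyme of Paneth cells, had 3.52, 1.31 and 1.83 CPM on black rice, against 86.3, 23.3 and 488 CPM on control (log2 fold change -6.22, SE 1.14, edgeR adjusted p = 0.446). The groups did not overlap. Its close relative Lyz2, made by macrophages, had 72.0, 29.8 and 133 CPM on black rice, against 99.9, 95.2 and 230 CPM on control, with overlap.

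Mmp7, which activates alpha-defensins and is made by intestinal tumours, had 1.24, 0.742 and 4.52 CPM on black rice, against 23.9, 14.3 and 166 CPM on control. Mptx1, a pentraxin, had 4.61, 1.10 and 11.9 CPM on black rice, against 88.7, 14.5 and 143 CPM on control. Pla2g2a, an antibacterial phospholipase, had 1.20, 0.589 and 16.0 CPM on black rice, against 47.5, 53.3 and 203 CPM on control. None of the 3 overlapped between groups, and their log2 fold changes were -4.80, -3.73 and -4.03. With the replicate block Mmp7 and Mptx1 passed at log2 fold changes of -4.49 and -3.75 (edgeR adjusted p = 0.0336 for each). Defa24, an alpha-defensin, had 0, 0 and 0.0441 CPM on black rice, against 1.997, 0.869 and 27.9 CPM on control. In reads this was 2 on black rice and 1453 on control, which is 621-fold lower (95% exact interval 172 to 5135, counting error only). Without control library 3 it was 95.2-fold lower (25.9 to 793). Alpha-defensin genes are near-identical copies, so reads may be split or lost among them, and Defa24 passed with the block at an edgeR adjusted p of 0.0336. Gm45336, a predicted gene named because it also passed with the block (edgeR adjusted p = 0.0336), had 0, 0 and 0.132 CPM on black rice, against 15.7, 1.04 and 83.3 CPM on control.

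**Figure D2:**
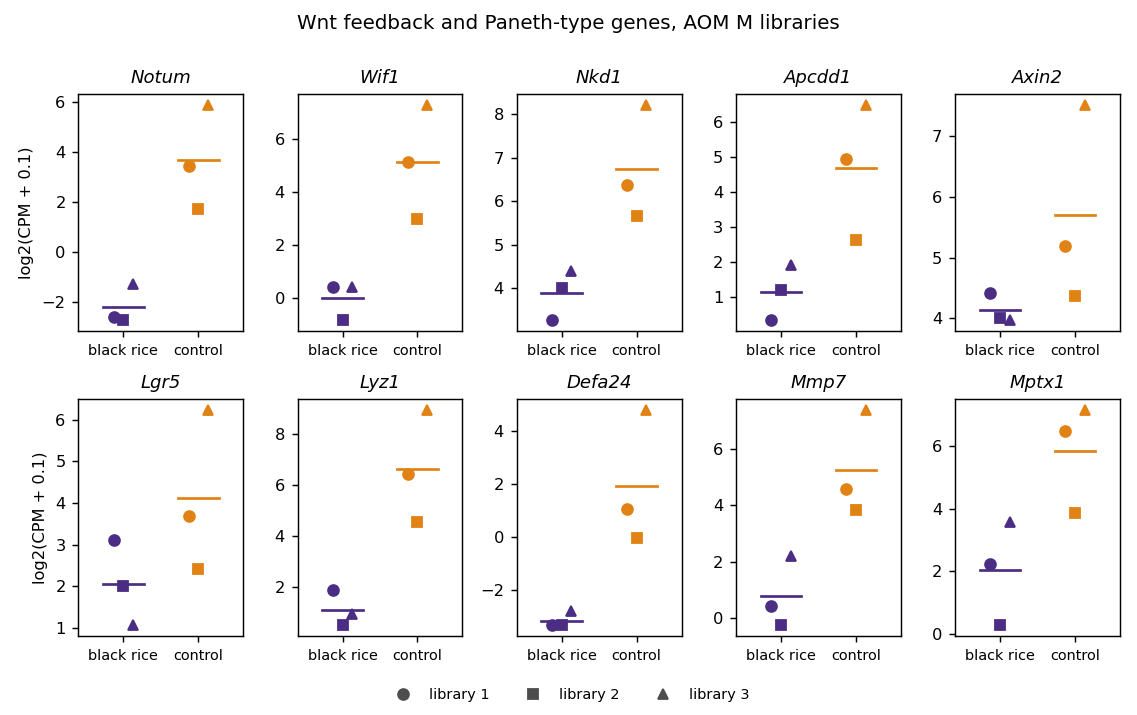
Each panel shows a gene as log2(CPM + 0.1) in the 3 black rice libraries (left, purple) and the 3 control libraries (right, orange) of the AOM M set, with the marker shape giving the library number and the bar the mean of the log2 values. Control library 3 is the highest point in each of the 10 panels. The groups overlap for Axin2 and Lgr5 and not for the other 8 genes.

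Stem cell genes followed with smaller differences. Of 10 tested, 9 had a log2 fold change below 0, and the list median was -0.91. An unadjusted p under 0.05 was reached by 5, and 3 did not overlap, all lower (backgrounds 6.39% and 6.91%). Axin2, given above, is also on this list. The 11 genes given summed to 337, 239 and 344 CPM on black rice, against 262, 319 and 881 CPM on control. These sums overlapped, and control library 3 was the highest. Lgr5, the receptor that marks crypt base stem cells, had 8.54, 3.92 and 1.99 CPM on black rice, against 12.9, 5.25 and 75.2 CPM on control. Black rice library 1 lay above control library 2 (log2 fold change -2.39, SE 0.97, edgeR adjusted p = 0.446), and without control library 3 the log2 fold change was -0.83. Tnfrsf19, a Wnt-responsive receptor of stem cells, had 2.16, 2.48 and 2.45 CPM on black rice, against 7.93, 2.99 and 23.5 CPM on control, with no overlap. Smoc2 had 7.51, 8.09 and 26.0 CPM on black rice, against 19.9, 28.4 and 87.9 CPM on control, where black rice library 3 reached into the control range.

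Cell cycle and DNA replication genes were lower as a group, by less than the Wnt brakes. All 25 genes on the list were tested and all 25 had a log2 fold change below 0. An unadjusted p under 0.05 was reached by 13, against a background of 6.39%. The black rice libraries lay wholly below the control libraries for 15, against 6.91%. The median was -0.65, and DESeq2 called 1 member. Black rice library 2 was the lowest library for 24 of the 25 genes and control library 3 the highest for 19, against 29.6% and 44.2% of all genes tested. The 25 genes summed to 745, 425 and 786 CPM on black rice, against 926, 1058 and 1591 CPM on control.

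Mki67, the proliferation antigen Ki-67, had 111, 58.6 and 139 CPM on black rice, against 196, 152 and 380 CPM on control (log2 fold change -1.11, SE 0.36, edgeR adjusted p = 0.446). Rrm2, the small subunit of ribonucleotide reductase, had 10.1, 10.5 and 15.7 CPM on black rice, against 32.4, 23.7 and 26.6 CPM on control. Mcm5, part of the replicative helicase, had 19.1, 12.9 and 22.3 CPM on black rice, against 25.6, 39.6 and 47.6 CPM on control. These 3 genes had no overlap between groups, and control library 3 was not the highest for Rrm2. With the distal Hox covariate and with black rice library 3 alone the log2 fold changes of Mki67 were -0.74 and -0.83. The log2 fold changes of Rrm2 and Mcm5 were -1.11 (SE 0.24) and -0.93 (SE 0.22). Cdkn2b, the cell cycle inhibitor p15, was not on the list and had 57.2, 42.5 and 42.6 CPM on black rice, against 24.3, 16.8 and 26.6 CPM on control, higher in 3 of 3 black rice libraries (log2 fold change 1.20, SE 0.25, edgeR adjusted p = 0.446).

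**Figure D3:**
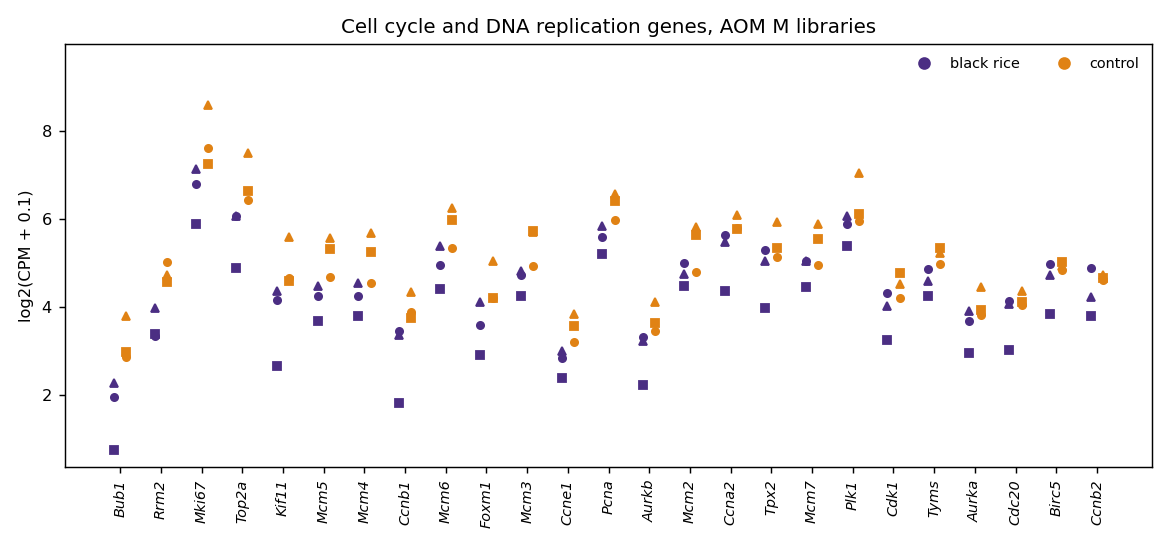
The 25 cell cycle and DNA replication genes are ordered by log2 fold change from the lowest at the left, with black rice libraries (purple) left of control libraries (orange) for each gene, on a log2(CPM + 0.1) axis. Circles, squares and triangles are libraries 1, 2 and 3. The square of black rice library 2 is the lowest point for 24 of the 25 genes.

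Metallothioneins, small proteins that bind zinc and copper, stood higher on black rice. Mt1 (ENSMUSG00000031765) had 759, 1058 and 350 CPM on black rice, against 129, 142 and 135 CPM on control. Mt2 (ENSMUSG00000031762) had 95.7, 128 and 44.9 CPM on black rice, against 11.1, 8.25 and 18.1 CPM on control. Neither gene overlapped between groups, the control libraries lay close together for Mt1, and black rice libraries 1 and 2 were the highest. The log2 fold changes were 2.58 (SE 0.48) for Mt1 and 3.05 (SE 0.49) for Mt2, each with an edgeR adjusted p of 0.446. With black rice library 3 alone against the 3 controls they were 1.30 and 1.81.

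The promoter windows of both metallothioneins are shown because they carry the letters of the metal response element, which the zinc sensor Mtf1 binds. Both are from RefSeq on GRCm38.p6, plus strand, Mt1 at chr8:94178839-94179138 and Mt2 at chr8:94172368-94172667. Capitals mark TGCACNC or TGCGCNC on either strand, with no overlap between matches.
Mt1: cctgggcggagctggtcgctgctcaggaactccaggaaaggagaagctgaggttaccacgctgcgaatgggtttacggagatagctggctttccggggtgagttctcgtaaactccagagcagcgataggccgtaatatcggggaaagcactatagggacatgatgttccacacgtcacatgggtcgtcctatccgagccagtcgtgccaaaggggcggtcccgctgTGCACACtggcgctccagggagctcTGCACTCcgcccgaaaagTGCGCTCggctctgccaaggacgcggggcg
Mt2: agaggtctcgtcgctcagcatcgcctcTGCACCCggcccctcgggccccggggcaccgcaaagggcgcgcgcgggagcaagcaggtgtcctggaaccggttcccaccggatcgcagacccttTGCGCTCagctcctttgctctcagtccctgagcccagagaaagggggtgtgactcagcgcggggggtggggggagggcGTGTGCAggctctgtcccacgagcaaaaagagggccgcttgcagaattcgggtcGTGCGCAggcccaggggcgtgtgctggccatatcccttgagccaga
The Mt1 window held 3 matches and the Mt2 window 4. At least 3 were held by 1.97% of all windows, at least 4 by 0.517%, and at least 1 by 25.7%.

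The other genes of smallest p among those higher on black rice were not on a common list. Tnfrsf14 (ENSMUSG00000042333), the herpesvirus entry mediator of mucosal defence, had 18.8, 18.9 and 20.7 CPM on black rice, against 7.84, 5.56 and 9.29 CPM on control, with black rice libraries that agreed closely and no overlap (log2 fold change 1.49, SE 0.23, edgeR adjusted p = 0.446). Il17re, the receptor chain for epithelial IL-17C, had 44.7, 47.6 and 35.9 CPM on black rice, against 19.1, 19.8 and 18.1 CPM on control. Camk2n1, an inhibitor of calmodulin kinase II, had 165, 154 and 183 CPM on black rice, against 79.1, 103 and 95.1 CPM on control. Il17re and Camk2n1 did not overlap between groups, and Camk2n1 was as high in black rice library 3 as in the others. Wnk4, a kinase that regulates salt transport, had 56.2, 56.4 and 58.8 CPM on black rice, against 35.3, 28.3 and 30.9 CPM on control. Sstr1, a somatostatin receptor, had 3.57, 3.92 and 3.80 CPM on black rice, against 1.22, 1.39 and 1.55 CPM on control. The log2 fold changes of Il17re, Camk2n1, Wnk4 and Sstr1 were 1.30, 0.97, 0.96 and 1.57, each at an edgeR adjusted p of 0.446. Tmem44 and mt-Tc, a mitochondrial tRNA, completed the 10 genes named by smallest p in this direction, at log2 fold changes of 1.54 and 1.70. Counting did not use strand, so reads of mt-Tc cannot be told apart from transcripts of the opposite strand. Grin3a, an NMDA receptor subunit named because it passed with the replicate block (log2 fold change 3.30, edgeR adjusted p = 0.0355), had 49.98, 33.1 and 8.52 CPM on black rice, against 4.88, 4.96 and 0.751 CPM on control.

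**Figure D4:**
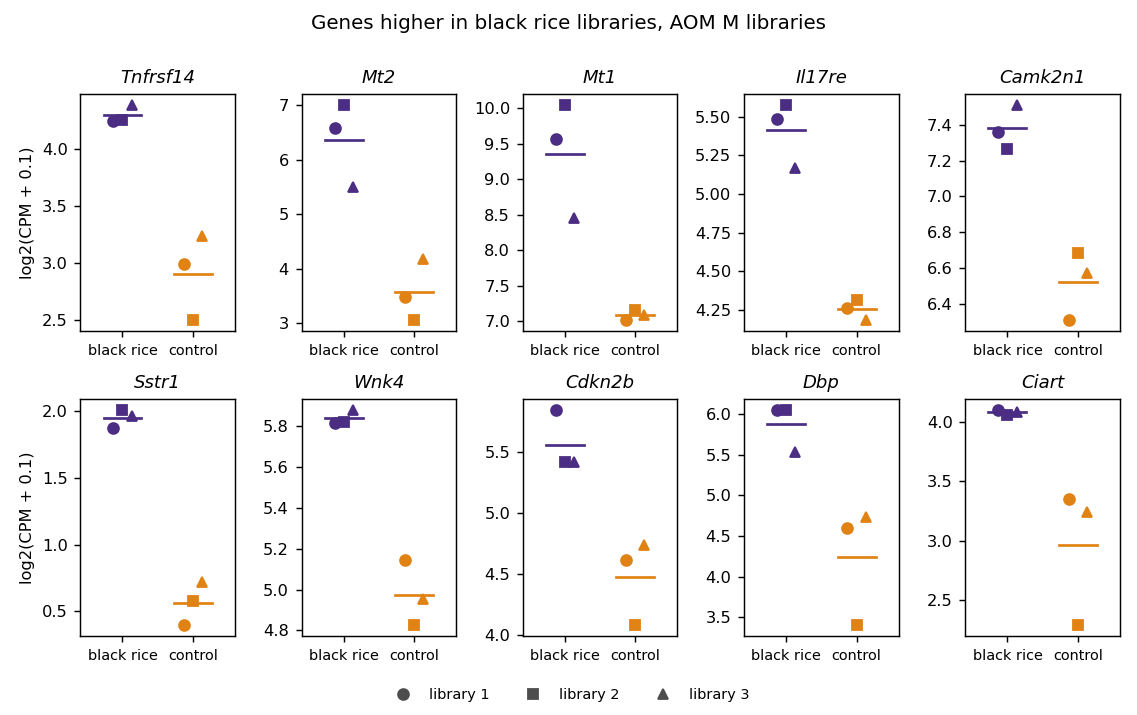
Each panel shows a gene as log2(CPM + 0.1) in the 3 black rice libraries (left, purple) and the 3 control libraries (right, orange) of the AOM M set, with the marker shape giving the library number and the bar the mean of the log2 values. All black rice points lie above all control points in each of the 10 panels. For Mt1, Mt2 and Dbp black rice library 3 is the lowest of the black rice libraries.

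Tuft cells are the chemosensory cells of the epithelium, and most of their listed genes stood higher on black rice. Of 11 genes tested, 8 had a log2 fold change above 0 (background 47.6%), and 5 of them reached an unadjusted p under 0.05 and had all black rice libraries above all control libraries (backgrounds 4.66% and 7.26%). The median was 0.65, and DESeq2 called 3 higher. The 3 members below 0 ran down to -0.83. The list summed to 132 and 112 CPM in black rice libraries 1 and 2, above every control library. Black rice library 3, at 94.1 CPM, lay below control library 3, at 111 CPM, so the sums overlapped. Trpm5, the taste channel of tuft cells, had 24.7, 15.7 and 8.83 CPM on black rice, against 5.25, 4.65 and 2.36 CPM on control (log2 fold change 2.11, SE 0.54, edgeR adjusted p = 0.446). Sh2d6 had 13.2, 10.3 and 7.13 CPM on black rice, against 4.57, 3.01 and 3.46 CPM on control. Pou2f3, the lineage factor of tuft cells, had 3.80, 2.51 and 2.34 CPM on black rice, against 1.29, 2.12 and 1.05 CPM on control. With the distal Hox covariate and with black rice library 3 alone the log2 fold changes of Trpm5 were 0.96 and 0.99. For Trpm5, Sh2d6 and Pou2f3 black rice library 1 was the highest and the groups did not overlap. In bulk tissue more cells of a type and more RNA per cell cannot be told apart.

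The epithelial lists that follow each had fewer members at an unadjusted p under 0.05 than the tuft list. The median of the enteroendocrine list was as high as that of the tuft list. Pan-epithelial markers had 11 of 12 genes above 0 and a median of 0.37, with 0 at an unadjusted p under 0.05. Absorptive colonocyte genes had 13 of 20 above 0 (median 0.12), and Guca2b, the precursor of uroguanylin, had 96.3, 60.7 and 62.1 CPM on black rice, against 32.6, 39.0 and 22.5 CPM on control, with no overlap. Goblet genes had 5 of 13 above 0 (median -0.25). Spdef, the goblet cell transcription factor, had 112, 96.7 and 113 CPM on black rice, against 39.2, 87.5 and 53.5 CPM on control, while Muc2, the main colonic mucin, had 11577, 8752 and 11647 CPM on black rice, against 6176, 7283 and 13764 CPM on control, with overlap (log2 fold change 0.39, SE 0.45, edgeR adjusted p = 0.699). Enteroendocrine genes had 11 of 13 above 0 (median 0.65), with Nts, neurotensin, at 32.8, 10.1 and 7.88 CPM on black rice, against 6.10, 1.39 and 0.236 CPM on control, the only member at an unadjusted p under 0.05. Small intestinal enterocyte genes were split 7 to 7 (median -0.03), and Apoa1 stood at 53.6 CPM in control library 1 and at most 0.618 CPM in the other 5 libraries. Claudins and tight junction genes had 9 of 16 above 0 (median 0.09). Cldn3, with a log2 fold change of 0.98 from all 6 libraries and 0.20 with the distal Hox covariate, had 1064, 1073 and 601 CPM on black rice, against 520, 565 and 434 CPM on control.

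Lists of energy metabolism differed in direction. All 23 nuclear genes of oxidative phosphorylation had a log2 fold change above 0, with a median of 0.47. Only 1 reached an unadjusted p under 0.05, and 5 had no overlap (backgrounds 4.66% and 7.26%). Of the 23, 17 were above 0 with the distal Hox covariate. Cox6c, a subunit of cytochrome oxidase, had 646, 483 and 406 CPM on black rice, against 284, 374 and 218 CPM on control. The 13 mitochondrially encoded genes went the other way in 10 cases (median -0.37). Here 1 was lower at an unadjusted p under 0.05 and 2 had no overlap (backgrounds 6.39% and 6.91%). Their sums overlapped, at 134560, 190760 and 96785 CPM on black rice, against 142540, 135310 and 98855 CPM on control. The lowest log2 fold change was that of mt-Nd6, at 598, 1124 and 1190.1 CPM on black rice, against 2763, 1483 and 2084 CPM on control. As for mt-Tc, its reads cannot be told apart from transcripts of the opposite strand. Fatty acid oxidation genes had 18 of 21 above 0 (median 0.42, 3 at an unadjusted p under 0.05), and Acadm, a dehydrogenase of medium-chain fatty acids, had 144, 124 and 128 CPM on black rice, against 106, 87.1 and 73.6 CPM on control. Glycolysis genes had 10 of 18 above 0 (median 0.16), and bile acid and nutrient sensing genes 14 of 17 (median 0.56). Lipogenesis genes had 12 of 15 below 0 (median -0.16). Among these Scd1, the desaturase that makes monounsaturated fatty acids, had 35.9, 43.8 and 46.9 CPM on black rice, against 114, 64.5 and 169 CPM on control, with no overlap (log2 fold change -1.32, SE 0.31, edgeR adjusted p = 0.446). Cholesterol synthesis genes had 18 of 24 below 0 (median -0.18), 1 of them at an unadjusted p under 0.05.

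Xenobiotic enzymes had 22 of 24 tested genes above 0, with a median of 0.66 and 4 at an unadjusted p under 0.05 (background 4.66%). Gsta4, a glutathione transferase for lipid peroxidation products, had 125, 113 and 75.7 CPM on black rice, against 54.0, 60.1 and 33.4 CPM on control, with no overlap (log2 fold change 1.20, SE 0.37, edgeR adjusted p = 0.446). Cyp2s1, a cytochrome P450 of epithelia, had 299, 329 and 172 CPM on black rice, against 151, 126 and 89.4 CPM on control. With the distal Hox sum as a covariate 10 of 24 members were above 0, and with black rice library 3 alone 13 were. For Gsta4 these settings gave log2 fold changes of 0.46 and 0.52.

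Targets of the aryl hydrocarbon receptor did not stand higher on black rice. Cyp1a1, its most inducible target, was too low to test, at 0.0427, 0.0256 and 0.0221 CPM on black rice, against 0, 0.193 and 0 CPM on control. Tiparp, a repressor induced by the receptor, had 9.05, 8.62 and 11.9 CPM on black rice, against 16.0, 14.5 and 16.8 CPM on control. Ahrr, the receptor's own repressor, had 0.213, 0.256 and 0.265 CPM on black rice, against 0.563, 0.541 and 0.429 CPM on control. Both lay lower in 3 of 3 black rice libraries with no overlap, at log2 fold changes of -0.57 (SE 0.20) and -0.96 (SE 0.40) and an edgeR adjusted p of 0.446 each. Of the 7 targets tested 5 were below 0, with a median of -0.06. Cyp1b1 had 0.107, 0.384 and 0.486 CPM on black rice, against 0.581, 0.290 and 0.129 CPM on control, an overlap with a log2 fold change of -0.03 whose sign turned with several settings. Nqo1, which also answers to Nrf2, had 116, 86.6 and 75.7 CPM on black rice, against 77.9, 52.2 and 18.3 CPM on control.

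Ahr itself had 4.97, 5.71 and 10.2 CPM on black rice, against 11.9, 9.42 and 20.7 CPM on control, with black rice library 3 above control library 2 (log2 fold change -0.89, SE 0.32, edgeR adjusted p = 0.446). The receptor complex list had 6 of 7 genes below 0 and a median of -0.16. Genes of tryptophan and serotonin metabolism were split 9 above and 8 below 0, with a median of 0.03. Ido1, which opens the kynurenine pathway, had 4.21, 1.97 and 6.38 CPM on black rice, against 6.37, 13.4 and 9.66 CPM on control, where black rice library 3 reached the lowest control library (log2 fold change -1.15, SE 0.43, edgeR adjusted p = 0.446). Tph1, which makes serotonin in enterochromaffin cells, had 20.0, 6.07 and 11.98 CPM on black rice, against 2.56, 12.6 and 12.1 CPM on control (log2 fold change 0.65, SE 0.61, edgeR adjusted p = 0.634).

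Clock output genes differed in both phases. Of 11 genes that peak with Dbp, 10 had a log2 fold change above 0, and the list median was 0.54. Higher at an unadjusted p under 0.05 were 4, against a background of 4.66%. All black rice libraries lay above all control libraries for 5, against 7.26%. Dbp had 66.1, 65.9 and 46.3 CPM on black rice, against 24.1, 10.5 and 26.5 CPM on control (log2 fold change 1.69, SE 0.38, edgeR adjusted p = 0.446). With the distal Hox covariate and with black rice library 3 alone the log2 fold changes of Dbp were 1.20 and 1.13. Ciart, a repressor that peaks with it, had 17.1, 16.6 and 16.9 CPM on black rice, against 10.1, 4.77 and 9.36 CPM on control. Of 6 genes of the Bmal1 phase 5 were below 0, with a median of -0.83. Nfil3 had 2.24, 1.79 and 2.45 CPM on black rice, against 3.49, 6.45 and 4.85 CPM on control, and Clock had 46.4, 36.5 and 67.8 CPM on black rice, against 69.6, 80.7 and 146 CPM on control. None of these 4 genes overlapped between groups. The labels give no time of day at collection, so a difference in collection time and a difference by diet cannot be told apart.

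Most interferon gamma response genes stood lower on black rice, though the sum of the list overlapped between diets. It was 164, 138 and 266 CPM on black rice, against 231, 260 and 287 CPM on control. Black rice library 3 thus lay above control libraries 1 and 2 in this sum. Of 16 tested, 14 had a log2 fold change below 0, and the list median was -1.15. Lower at an unadjusted p under 0.05 were 8, and 5 lay wholly below control (backgrounds 6.39% and 6.91%). For 1 other member all black rice libraries lay above all control libraries. Cxcl9, a chemokine that draws T cells, had 0.897, 0.537 and 2.49 CPM on black rice, against 6.52, 11.2 and 7.19 CPM on control (log2 fold change -2.62, SE 0.55, edgeR adjusted p = 0.446). With the distal Hox covariate and with black rice library 3 alone its log2 fold changes were -2.10 and -1.81. Iigp1, a GTPase against intracellular microbes, had 2.56, 2.33 and 7.22 CPM on black rice, against 7.77, 12.5 and 14.9 CPM on control, and Gbp3 had 2.01, 3.02 and 6.22 CPM on black rice, against 7.59, 7.40 and 13.7 CPM on control. All 3 separated the groups, with black rice library 3 the highest of its group. Under the same settings Iigp1 had -0.79 and -0.74, as against -1.46 from all 6 libraries, and Gbp3 had -0.68 and -0.65, as against -1.25. Type I interferon genes did not share this, with 10 of 18 above 0 and a median of 0.02. Ifitm3, an antiviral membrane protein induced by both interferons and a Wnt target in intestinal tumours, had 55.7, 74.9 and 80.1 CPM on black rice, against 164, 180 and 372 CPM on control (log2 fold change -1.60, SE 0.29, edgeR adjusted p = 0.446).

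Most immune lists lay below 0. Macrophage and dendritic genes had 13 of 14 below 0 and a median of -0.66, with 3 at an unadjusted p under 0.05 (background 6.39%). C1qb, a chain of complement C1q, had 27.03, 21.3 and 36.2 CPM on black rice, against 36.9, 38.2 and 59.3 CPM on control, and Mrc1, the mannose receptor, had 3.82, 2.61 and 7.64 CPM on black rice, against 8.46, 8.69 and 20.0 CPM on control. B and plasma cell genes were below 0 in 15 of 15 cases (median -0.67), but 0 reached an unadjusted p under 0.05 and 0 separated the groups, and the list summed to 3181, 1557 and 3849 CPM on black rice, against 1563, 4784 and 7051 CPM on control. T and NK cell genes had 10 of 17 below 0 (median -0.16), MHC class II genes 8 of 9 (median -0.21) and neutrophil genes 9 of 9 (median -0.94, 1 at an unadjusted p under 0.05). Cytokine genes had 13 of 16 below 0 (median -1.23), with Il23a at 0.149, 0.205 and 0.552 CPM on black rice, against 1.25, 1.24 and 8.48 CPM on control, and Il33 at 0.833, 1.25 and 3.97 CPM on black rice, against 5.23, 4.87 and 23.6 CPM on control. Epithelial defence genes had 12 of 17 below 0 (median -0.76). Among eosinophil and mast cell genes 7 of 10 were below 0 (median -1.27), and the mucosal mast cell proteases Mcpt1 and Mcpt2 separated the groups. The eosinophil gene Siglecf went the other way, the only member higher at an unadjusted p under 0.05. Its log2 fold change was 1.48, and 0.28 with the distal Hox covariate. Mcpt2 had 1.09, 0.230 and 1.79 CPM on black rice, against 5.79, 34.3 and 7.02 CPM on control, highest in control library 2. The Mcpt genes are close paralogs, and reads may be split between them.

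Stroma and blood genes mostly lay below 0 as well. Fibroblast genes had 17 of 18 below 0 (median -0.58) and smooth muscle genes 12 of 13 (median -0.26), with 0 at an unadjusted p under 0.05 in either list. The fibroblast list summed to 614, 605 and 2607 CPM on black rice, against 1189, 2129 and 2856 CPM on control, so black rice libraries 1 and 2 were lowest. The part of this lower stromal level in the immune lists was not tested. Endothelial genes had 9 of 11 below 0 (median -0.57), with Lyve1, a lymphatic receptor, at 4.38, 5.04 and 6.45 CPM on black rice, against 10.4, 10.5 and 12.6 CPM on control. Haemoglobin genes had 7 of 7 below 0 (median -1.03), adipocyte genes 7 of 10 (median -0.57) and skeletal muscle genes 6 of 8 (median -0.52). Enteric neuron and glia genes had 13 of 15 above 0 (median 0.57) and mesothelial genes 5 of 6 (median 0.18), with 0 at an unadjusted p under 0.05 in either. Squamous genes had 4 of 6 below 0 (median -0.49), and of the male accessory gland list only Spink1 was tested, at a log2 fold change of -1.82. Stress lists differed little, with medians of -0.17 for 17 unfolded protein genes, -0.25 for 11 heat shock genes and -0.15 for 17 immediate early genes. The position list, which joins distal and more forward Hox genes, was split 10 to 10 (median 0.14). Its members ran from -7.16 for Hoxd13 to 2.21, so the median does not measure the Hox differences given above.

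Albumin had the smallest p of the contrast. Alb (ENSMUSG00000029368) had 0.470, 0.358 and 0.596 CPM on black rice, against 21.2, 6.70 and 47.0 CPM on control (log2 fold change -5.54, SE 0.70, edgeR adjusted p = 0.446). The groups did not overlap, and it was called at an edgeR adjusted p of 0.0415 without the low-count filter and of 0.0410 without control library 2. The 13 genes of the hepatocyte list, albumin included, summed to 7.13, 12.9 and 13.8 CPM on black rice, against 69.2, 23.5 and 123 CPM on control. Ttr, the thyroid hormone carrier transthyretin, had 4.76, 9.80 and 11.7 CPM on black rice, against 31.0, 12.4 and 54.9 CPM on control. Ahsg and Cyp2e1 were low in all 6 libraries, at most 0.128 and 0.972 CPM on black rice and at most 0.464 and 3.32 CPM on control. None of these 3 genes overlapped between groups, with log2 fold changes of -1.76 for Ttr, -1.92 for Ahsg and -2.21 for Cyp2e1. Apoh was the tested member above 0, and 7 of the 13 genes, the 3 fibrinogen chains among them, were too low to test. Of the 6 tested 5 were below 0, each at an unadjusted p under 0.05 (background 6.39%), and the list median was -2.07. Pancreatic genes held Pnliprp1, a lipase relative, at 0.064, 0.128 and 0.154 CPM on black rice, against 12.1, 1.51 and 118 CPM on control, while 9 of the 14 genes on that list were too low to test and 4 of the other 5 were below 0 (median -0.55).

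The remaining genes of smallest p on the lower side were not on a list. Slfn9 (ENSMUSG00000069793), a Schlafen family gene with near copies, had 16.7, 10.98 and 15.6 CPM on black rice, against 35.0, 40.1 and 75.9 CPM on control (log2 fold change -1.65, SE 0.26, edgeR adjusted p = 0.446). Alox15, a lipoxygenase of eosinophils and epithelia, had 0.128, 0 and 0.221 CPM on black rice, against 8.02, 1.35 and 23.6 CPM on control, and passed with the block at a log2 fold change of -6.41 (edgeR adjusted p = 0.0485). H19, an imprinted growth-linked RNA named because it passed with the block (log2 fold change -4.38, edgeR adjusted p = 0.0355), had 0.192, 0.333 and 1.21 CPM on black rice, against 4.67, 7.03 and 28.0 CPM on control. Each of these 3 genes separated the groups. Lrg1, which also passed with the block (log2 fold change -2.49, edgeR adjusted p = 0.0485), did not, at 1.69, 0.972 and 14.2 CPM on black rice, against 9.19, 6.82 and 85.2 CPM on control. Grin3a, H19 and Lrg1 had log2 fold changes of 1.17, -2.83 and -0.38 with the distal Hox covariate. Slc38a4, an imprinted amino acid transporter, had 0.107, 0.640 and 0.375 CPM on black rice, against 5.92, 2.49 and 11.5 CPM on control. Tmed7 and Mir703, a microRNA locus whose reads may belong to overlapping transcripts, had log2 fold changes of -1.06 and -2.80. Both separated the groups.

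**Figure D5:**
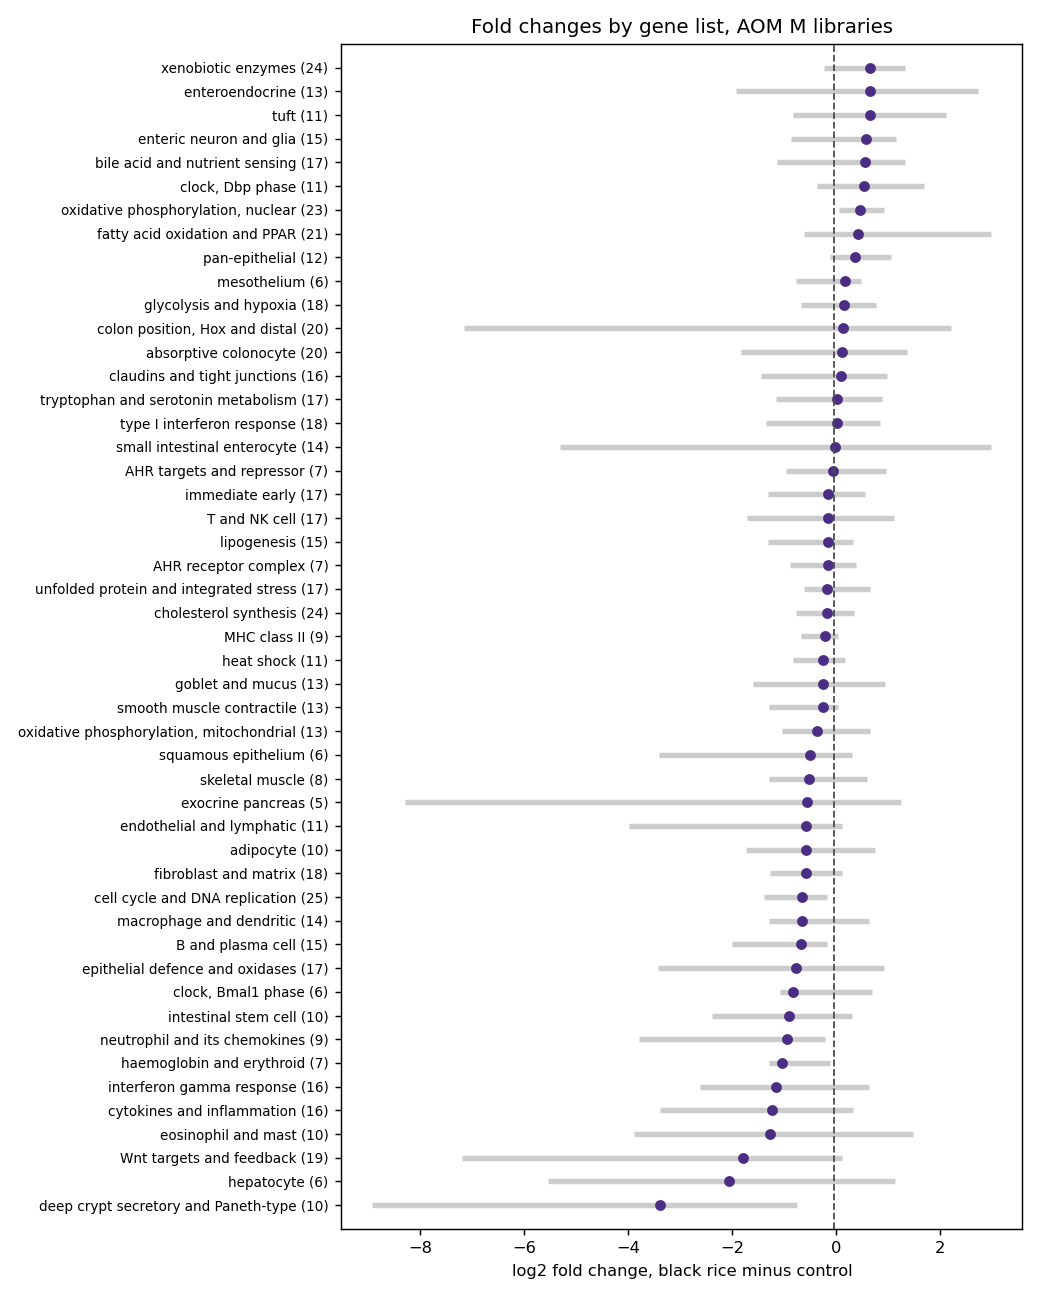
Each line is a gene list with at least 5 tested members, the number tested in parentheses, ordered by the median log2 fold change of black rice minus control (purple point). The grey bar runs from the lowest to the highest member, and the dashed line is the median of all 19683 genes at -0.03. Paneth-type, hepatocyte and Wnt lists have the lowest medians, at -3.38, -2.07 and -1.80.

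The same diet contrast was then set against the F-coded libraries of the AOM set, to ask whether a difference was particular to the M code. Black rice F library 3 was left out, since its pan-epithelial markers summed to 963 CPM, against 10989 to 13986 CPM in the other 5 F libraries, and its albumin and other hepatocyte genes were far above theirs. The difference of the diet effects, M minus F, called 0 of 21895 genes (0%) in edgeR, with 3063 (14%) at an unadjusted p under 0.05, and DESeq2 called 175. Slfn9 had the smallest p of the genes named, with 57.8 and 35.2 CPM in F black rice and 25.2, 22.6 and 21.3 CPM in F control libraries. The difference M minus F was -2.68 (SE 0.39, edgeR adjusted p = 0.314). Dtl, a regulator of replication licensing, had 3.65, 2.69 and 4.37 CPM in M black rice and 7.26, 9.37 and 14.98 CPM in M control libraries. It had 10.8 and 7.06 CPM in F black rice and 5.72, 5.59 and 4.46 CPM in F control libraries (difference -2.20, SE 0.41, edgeR adjusted p = 0.314). Slfn9 and Dtl thus lay below the controls in M and above them in F black rice libraries. Lrrc26, a potassium channel subunit of goblet cells, Hirip3 and Snord118 also were among the 5 smallest p, with differences of 2.28, -1.94 and 4.21.

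Notum, Wif1, Nkd1, Apcdd1 and Znrf3 each had their highest F value in black rice library 1, and none separated the diets in F libraries. Notum had 90.1 and 0.0902 CPM in F black rice and 49.4, 58.3 and 3.32 CPM in F control libraries, so the F black rice libraries were the highest and the lowest of the 5. The M minus F difference for Notum was -7.47 (SE 2.62, edgeR adjusted p = 0.314). Mki67 had 292 and 222 CPM in F black rice and 118, 145 and 176 CPM in F control libraries, higher where the M black rice libraries were lower (difference -1.95, SE 0.48, edgeR adjusted p = 0.314). Mt1 had 181 and 154 CPM in F black rice and 451, 469 and 162 CPM in F control libraries (difference 3.67, SE 0.76, edgeR adjusted p = 0.314). Dbp had 2.75 and 13.7 CPM in F black rice and 8.94, 25.2 and 19.7 CPM in F control libraries (difference 2.80, SE 0.88, edgeR adjusted p = 0.314).

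The M-coded libraries of the Apc set gave a second reference. The difference of diet effects, AOM minus Apc, called 0 of 21298 genes (0%) in edgeR, with 2968 (13.9%) at an unadjusted p under 0.05 and a smallest adjusted p of 0.165. Limma-voom called 29 and DESeq2 544. The edgeR test called 113 genes without AOM black rice M library 3 and 6 without AOM control M library 2. Ffar4, a receptor for long-chain fatty acids, had 21.4, 20.1 and 22.0 CPM in AOM black rice and 12.2, 15.3 and 21.8 CPM in AOM control libraries, and 9.32, 7.44 and 8.62 CPM in Apc black rice and 22.1, 21.7 and 28.1 CPM in Apc control libraries (difference 1.97, SE 0.27, edgeR adjusted p = 0.165). Pnliprp2, a relative of pancreatic lipase, had 1.02, 1.05 and 1.88 CPM in AOM black rice and 11.2, 1.70 and 71.7 CPM in AOM control libraries, and 42.2, 104 and 279 CPM in Apc black rice and 1.18, 2.83 and 1.73 CPM in Apc control libraries (difference -10.39, SE 1.58, edgeR adjusted p = 0.165). The log2 fold changes of Ffar4 were 0.51 in AOM and -1.45 in Apc libraries, and those of Pnliprp2 -4.19 and 6.19. The Apc groups did not overlap for either gene, and the AOM groups overlapped for both. Notum reached at most 0.347 CPM in Apc black rice and 0.275 CPM in Apc control M libraries, which is the level of the AOM black rice libraries (difference -8.14, SE 1.38, edgeR adjusted p = 0.165). Dbp had a log2 fold change of 1.69 (SE 0.38) in AOM M and of 1.71 (SE 0.34) in Apc M libraries, and the difference was -0.01 (SE 0.53, edgeR adjusted p = 0.998). Dtl and Slfn9 were the other genes named here, with differences of -2.26 and -2.39. In the third table, 4 black rice and 4 control libraries, the log2 fold changes of Notum, Mt1, Slfn9 and Dbp were -0.02, -0.15, -0.10 and 0.74.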

How the data were processed

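RNA was measured in 38 libraries, of which the 6 AOM M-coded libraries carry the comparison. The authors deposited raw counts per gene. The AOM table and that of 8 libraries were made, per the file headers, with featureCounts 2.0.1, run on read pairs and exons of Ensembl 104 without a strand option. The submitters' processing notes list HISAT2, SAMtools, fastp and FastQC beside the counter, and the genome GRCm39, with no versions. Per the labels' protocols, messenger RNA was captured with oligo(dT) and no molecular identifiers are mentioned, so intervals and floors cover counting error only.

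Counts were fitted with edgeR 4.0.16 in R 4.3.3 on the 6 libraries alone, with filterByExpr, TMM factors and two-sided quasi-likelihood F tests, Benjamini-Hochberg adjusted over all genes tested with a threshold of 0.05. SE is the log2 fold change divided by the root of F. CPM values are unscaled by TMM. The biological coefficient of variation was 0.405 on 4 residual degrees of freedom. Differences between sets were interactions of group means, and DESeq2 1.42.0 and limma 3.58.1 were alternatives. Groups came from the titles. Replicate numbers were shared between diets, and deviations of same-numbered libraries from their group means correlated at 0.115, 0.261 and 0.325, so the fit with replicate number as a block is given where it changed a call. The pairing is in doubt: black rice 2 and control 1 correlated at 0.303, and no label says what the number marks. No pair of libraries within a group was a duplicate.

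The libraries, the 50 gene lists and the rule for named genes were chosen with earlier results of these data known. Since fewer than 6 genes passed, the rule took the 10 smallest p in each direction among genes whose mean log2 CPM was 1 or more, without pseudogenes, antigen receptor segments or predicted genes. It added up to 4 members of each list and the 5 smallest p of each difference. Cyp1a1, Cyp1b1, Ahrr, Tiparp, Ahr, Ido1, Tph1, Lgr5, Axin2, Mki67, Muc2, Alb, Xist and Ddx3y were always named. Lef1, Tcf7, Znrf3, Ccnd1, Myc, Sp5, T, Pla2g2a, Mptx2, Lyz2, Pou2f3, Gm45336, Grin3a, H19, Lrg1, Apoh, Lct and the summed Hox genes were chosen after their values were seen. Of 726 distinct list genes 657 were tested. Promoter windows are from RefSeq on GRCm38.p6, another build than that of the counts.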

Additional observations from a re-analysis of the deposited data

How the results depend on the processing

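The AOM M contrast called 0 genes with edgeR, 196 with DESeq2, 9 with the replicate block and 1 without a low-count filter, and 0 with RLE or upper quartile size factors, a CPM filter, limma-voom, the 11 or 12 libraries of the table, the distal Hox covariate or without black rice libraries 1 and 2. Leaving out a library in turn gave 0 to 1 calls. The M minus F difference gave 175 with DESeq2, 203 with a replicate block whose numbers did not pair these libraries, and 0 to 0 without a library. AOM minus Apc gave 544 with DESeq2, 29 with limma-voom and 0 to 113 without a library. Of the 11 list counts recomputed, only that of xenobiotic enzymes moved by over 1.5 times, to 10 with the Hox covariate and 13 without black rice libraries 1 and 2, both chosen after seeing the data, as against 22. Without a library the counts ran over 16 to 19 (Wnt), 7 to 9 (stem), 9 to 10 (Paneth-type), 24 to 25 (cell cycle), 13 to 15 (interferon gamma), 12 to 13 (macrophage), 8 to 9 (tuft), 22 to 23 (oxidative phosphorylation), 19 to 24 (xenobiotic), 8 to 10 (Dbp phase) and 4 to 5 (Bmal1 phase). Of 2500 log2 fold changes of 148 named genes under alternatives, 6 changed sign. The value fell below 0.5 of that from all 6 libraries for 36 genes with the Hox covariate, 26 without black rice libraries 1 and 2 and 13 without control library 3. Those of Cyp1b1 were 0.13 with the replicate block, 0.0029 with upper quartile factors, 0.40 without black rice libraries 1 and 2, and -0.43 to 0.75 without a library in turn (0.38 without black rice library 1, 0.75 without control library 1). Apoa1 ran from -5.84 to 0.15, the last without control library 1. With 3 libraries a group, of unlike distal Hox level and unstated tumour content, effects of diet, position and tumour content were not separable.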
